A study of Mus musculus with 4 samples.

Results

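Smooth muscle contractile genes were followed in RNA captured from the stroma and the luminal epithelium of the mouse uterus. The members were 10 genes chosen by name, Acta2, Actg2, Myh11, Cnn1, Tagln, Des, Mylk, Lmod1, Synpo2 and Smtn, out of 23235 genes in each of 2 deposited tables. All 10 were present in both tables. The study used laser capture microdissection, which cuts chosen cells from a tissue section under a microscope, to take stroma and luminal epithelium from the uterus. The uteri were from day 4 of pseudopregnancy, the hormonal state of pregnancy without embryos, and 4 libraries of RNA were sequenced. These were stroma labelled Msx1d/d/Msx2d/d, in which both Msx homeobox genes were deleted in the uterus, stroma of the floxed control Msx1f/f/Msx2f/f, luminal epithelium labelled Msx1d/d/Msx2d/d and luminal epithelium of the floxed control. Per the series design there was 1 mouse per genotype. Genotype therefore cannot be told apart from animal, and no value has a replicate. The sources used here gave no Cre driver, strain background or age.

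Smooth muscle contracts when calcium activates myosin light chain kinase, which lets the smooth muscle myosin pull on actin filaments. In the uterus this tissue forms the outer muscle layers, the myometrium, and the walls of arteries within the stroma, and the luminal epithelium has none. Acta2 encodes the actin typical of vascular smooth muscle and Actg2 the actin typical of visceral organs such as gut, bladder and uterus. Most genes of this programme are switched on by serum response factor and myocardin at a short DNA element, the CArG box.

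Promoter sequence was taken from RefSeq (build GRCm38.p6) for the members with the highest level in stroma, Acta2 in the library labelled knockout and Des in the control. Each line gives the 250 bases before the annotated start, and capitals mark a CArG box with at most 1 mismatch in its 6-base A or T core.
Acta2, chr19:34255374-34255623, minus strand: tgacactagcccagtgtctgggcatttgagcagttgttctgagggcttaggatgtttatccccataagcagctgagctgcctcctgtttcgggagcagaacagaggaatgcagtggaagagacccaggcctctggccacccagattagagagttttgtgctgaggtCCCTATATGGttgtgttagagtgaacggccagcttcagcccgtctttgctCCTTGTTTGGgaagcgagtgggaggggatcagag
Des, chr1:75360042-75360291, plus strand: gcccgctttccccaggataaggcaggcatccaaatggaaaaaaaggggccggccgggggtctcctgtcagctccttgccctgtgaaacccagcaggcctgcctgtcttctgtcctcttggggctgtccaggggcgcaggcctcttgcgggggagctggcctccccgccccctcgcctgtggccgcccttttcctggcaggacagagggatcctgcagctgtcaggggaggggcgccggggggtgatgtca
The element reads the same class of letters on both strands, and the allowance of 1 mismatch was chosen after the sequences had been searched. The 2 matches of Acta2 began 84 and 34 bases before the start. Among the 7 members matched in the table, Acta2, Cnn1, Des, Lmod1, Mylk, Smtn and Synpo2, 1 window held such a match and 0 held an exact CArG box, while 8.59% of all 32851 windows held a match with at most 1 mismatch and 1.47% an exact one. Actg2, Myh11 and Tagln were not matched.

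The depth of each library was estimated from the values, as about 61300000 reads for stroma labelled knockout, 42500000 for control stroma, 90100000 for luminal epithelium labelled knockout and 6340000 for control luminal epithelium. The control epithelial library was thus 14.2 times shallower than its partner. The values are RPKM, reads scaled to transcript length and to the mapped reads of the library, and 3 reads on Lmod1 stood for 0.00888 RPKM in the epithelial library labelled knockout and 0.126 RPKM in the control one. Msx1 was at 13.6 RPKM in epithelium labelled knockout against 23.2 RPKM in control. It was 1.70-fold lower, with counting limits, defined below, of 1.49 and 1.94. Msx2 was at 2.06 RPKM against 1.31 RPKM in the same libraries, a ratio of 1.58 whose limits of 0.981 and 2.60 reach equal levels. Whether the genes were deleted in the epithelial library was not tested, so the library is called labelled knockout throughout. In stroma labelled knockout Msx1 was at 0.0207 RPKM against 0.0467 RPKM in control stroma, about 2.20 and 3.44 reads. Msx2 was at 0.0564 against 0.135 RPKM there, about 7.79 and 12.9 reads. The limits of both stromal ratios reach equal levels. Epithelial markers such as Krt8 summed to 511 RPKM in epithelium labelled knockout and 442 RPKM in control epithelium, and to 0.534 RPKM in stroma labelled knockout and 1.79 RPKM in control stroma. The ribosomal protein gene Rpl26, used by every cell, was listed at 0 in both controls but at 3.02 RPKM in stroma and 1.33 RPKM in epithelium labelled knockout, so a 0 is not read as absence. The deposited locus of Rpl26 is shared with Gm15772, so their reads can be mixed. The labels name a stranded kit with rRNA removal, and use of strand in counting was not stated. Fewer muscle cells in a capture and less RNA per muscle cell cannot be told apart in these data.

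Stroma held part of the contractile programme. The actin Acta2, the intermediate filament protein Des, the kinase Mylk, the actin-binding protein Synpo2 and the cytoskeletal protein Smtn stood above 2 RPKM in both stromal libraries, and Tagln, an actin-binding protein, stood above 1 RPKM. The smooth muscle myosin Myh11 stayed below 1 RPKM. The visceral actin Actg2, the actomyosin regulator Cnn1 and the filament nucleator Lmod1 stayed below 0.2 RPKM. The 10 members summed to 34.2 RPKM in stroma labelled knockout and 27.6 RPKM in control stroma, and 6 of 10 reached 1 RPKM in each.

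**Figure D1:**
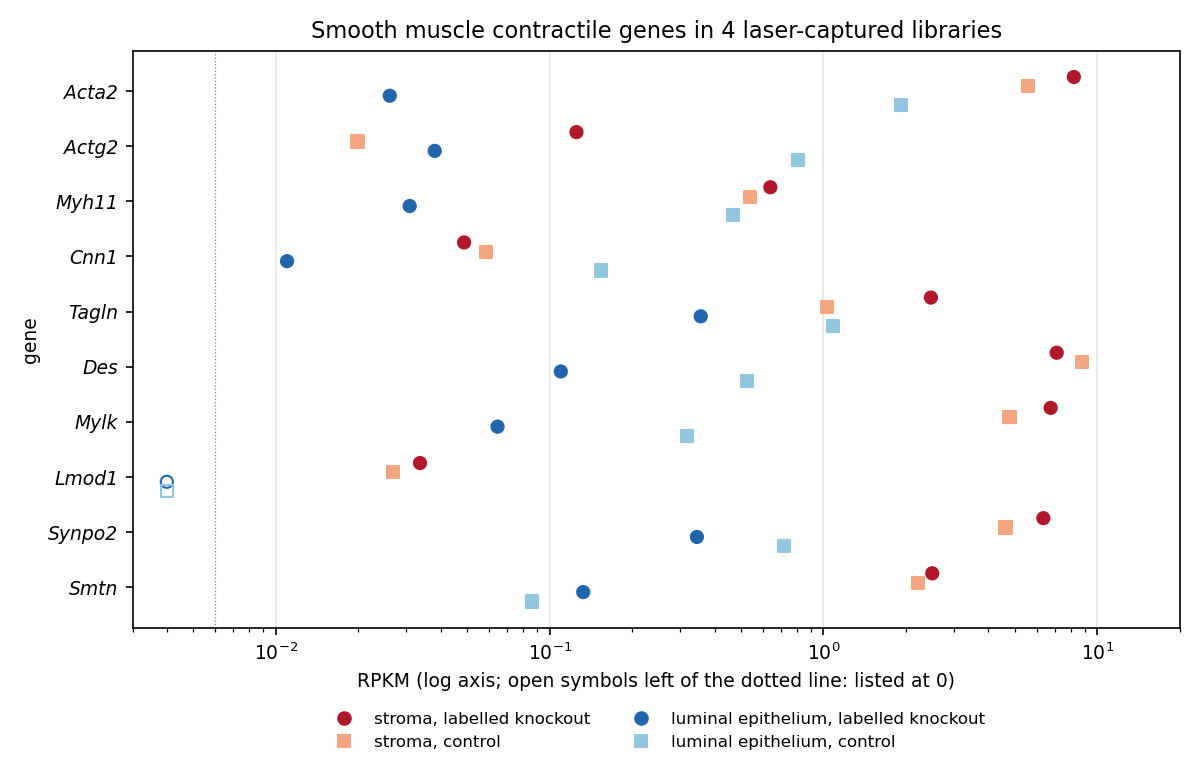
Level of each smooth muscle gene (rows) in RPKM on a log axis, 1 point per library, with circles for labelled knockout, squares for control, red tones for stroma and blue tones for luminal epithelium. Control epithelium lies right of epithelium labelled knockout for 8 of 10 genes, and Lmod1, drawn as open symbols, is listed at 0 in both epithelial libraries.

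The order of levels was much alike in the stromal libraries, apart from the first 2 places and the 3 lowest genes. In stroma labelled knockout the order was Acta2, Des, Mylk, Synpo2, Smtn, Tagln, Myh11, Actg2, Cnn1 and Lmod1, per unit length of transcript. In control stroma it was Des, Acta2, Mylk, Synpo2, Smtn, Tagln, Myh11, Cnn1, Lmod1 and Actg2. Counting limits (95% exact binomial, Clopper-Pearson, on estimated reads) could not separate Des from Mylk, Smtn from Tagln, or the neighbours among Actg2, Cnn1 and Lmod1 in the labelled knockout. In control stroma they could not separate Mylk from Synpo2, or the neighbours among Cnn1, Lmod1 and Actg2. Such limits cover counting error only, since animals vary and amplified reads can be copies of 1 molecule. In epithelium labelled knockout the order was Tagln, Synpo2, Smtn, Des, Mylk, Actg2, Myh11, Acta2 and Cnn1, with limits separating Synpo2 from Smtn and Des from Mylk. In control epithelium it was Acta2, Tagln, Actg2, Synpo2, Des, Myh11, Mylk, Cnn1 and Smtn, with no neighbours separated, and Lmod1 was listed at 0 in both.

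The first comparison set stroma labelled knockout against control stroma. Differences were small: 8 of 10 members were higher in the library labelled knockout, with ratios up to 2.40 among members backed by at least 10 estimated reads in each library. Differences across genes were taken as log2 of the ratio after adding 1 RPKM, a scale that understates the difference of low genes, over genes whose mean in the pair reached 1 RPKM. Of the 6 members that reached this mean, 0 differed at least 2-fold, where 3.04% of 7723 genes did. With 1 library a group there is no test, so higher and lower are said of the libraries alone. The median log2 difference of those 6 was 0.41, against 0.07 for all 7723 genes.

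Among the filament proteins, Acta2 (chromosome 19, 34315581 to 34329826, mm9) was at 8.21 RPKM in stroma labelled knockout and 5.58 RPKM in control stroma. Its ratio was 1.47, with counting limits of 1.31 and 1.65. Myh11 (chromosome 16, 14194620 to 14291501) was at 0.640 RPKM in the labelled knockout and 0.539 RPKM in control, a ratio of 1.19 whose limits of 0.963 and 1.48 reach equal levels. Des (chromosome 1, 75356919 to 75364290) was the member that was lower with limits below 1, at 7.11 RPKM in the labelled knockout and 8.78 RPKM in control, a ratio of 0.809 with limits of 0.745 and 0.879. Des is known outside muscle from the decidualizing stroma of rodents.

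Among kinase and actin-binding members, Mylk (chromosome 16, 34785036 to 35002520) was at 6.76 RPKM in stroma labelled knockout and 4.78 RPKM in control stroma, a ratio of 1.41 with limits of 1.33 and 1.50. Synpo2 (chromosome 3, 122779437 to 122939067) was at 6.35 and 4.62 RPKM in labelled knockout and control stroma, a ratio of 1.37 with limits of 1.29 and 1.47. Both were modestly higher in the labelled knockout. Smtn (chromosome 11, 3417525 to 3439295) was at 2.50 RPKM in the labelled knockout and 2.21 RPKM in control, with limits of its ratio at 0.974 and 1.31.

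Tagln had the largest log2 difference of the 6, 0.77, at 2.47 RPKM in stroma labelled knockout and 1.03 RPKM in control stroma, a ratio of 2.40 with limits of 1.796 and 3.24. It was the member called at least 2-fold higher when 0.1 RPKM was added in place of 1 and no minimum was asked, where 1.93% of 17632 genes were. The deposited locus of Tagln (chromosome 9, 45671774 to 45744141) is shared with Pcsk7 and Rnf214, and that of Mylk with E130310I04Rik and 1700119H24Rik, so reads of these neighbours can be mixed with theirs. Rnf214 was at 1.23 RPKM in the labelled knockout and 1.11 RPKM in control, and Pcsk7 at 1.05 and 0.758 RPKM. E130310I04Rik was at 3.90 and 3.01 RPKM in labelled knockout and control stroma.

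The low members rested on few reads. Actg2 (chromosome 6, 83462903 to 83486245) was at 0.125 RPKM in stroma labelled knockout, about 8.70 reads, and at 0.0199 RPKM in control stroma, about 0.957 reads. Its ratio of 6.30 had limits of 0.865 and 274. Cnn1 (chromosome 9, 21903697 to 21913665) was at 0.0487 and 0.0584 RPKM and Lmod1 (chromosome 1, 137221390 to 137264642) at 0.0336 and 0.0268 RPKM in labelled knockout and control, and the limits of both ratios reach equal levels. No difference of Actg2, Cnn1 or Lmod1 was detectable at this depth. The authors' deposited table marked 0 of the 7 members it tested in stroma as significant, where it marked 0.0409% of 12239 genes, and its lowest q-value among those 7 was 0.999999.

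Other genes of smooth muscle were described from lists. Of 18 further contractile and cytoskeletal genes, 12 reached the mean of 1 RPKM, 0 of them differed at least 2-fold, and their median log2 difference was 0.29. Pdlim3, a muscle scaffold protein, was at 7.85 RPKM in stroma labelled knockout and 3.87 RPKM in control stroma, and Myl9, the regulatory light chain that Mylk phosphorylates, at 10.8 and 5.51 RPKM. Of 13 genes of calcium and relaxation signalling, 9 reached the mean and 0 differed at least 2-fold. Atp2a2, the calcium pump of the sarcoplasmic reticulum, was at 8.51 and 4.81 RPKM and Itpr1, a calcium release channel, at 3.48 and 2.54 RPKM.

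Receptors for agents that contract the uterus ranged in stroma from a listed 0 to above 1 RPKM. Ednra, an endothelin receptor, was at 1.31 RPKM in the labelled knockout and 1.18 RPKM in control. Oxtr, the oxytocin receptor, was at 0.00377 RPKM in the labelled knockout and 0.0108 RPKM in control, and Chrm2, a muscarinic receptor, was listed at 0 in all 4 libraries. Of the 7 genes of this list 2 reached the mean and 0 differed at least 2-fold. Gja1, the gap junction protein connexin 43, was at 6.46 RPKM in stroma labelled knockout and 3.75 RPKM in control stroma, and Ptger3, a prostaglandin E receptor, at 0.386 and 1.58 RPKM, 4.09-fold lower in the labelled knockout with limits of 3.07 and 5.41.

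Among 8 transcriptional regulators, 5 reached the mean and 0 differed at least 2-fold. Klf4, a zinc finger factor that represses smooth muscle genes, was at 1.43 RPKM in stroma labelled knockout and 0.575 RPKM in control stroma, a ratio of 2.49 with limits of 1.90 and 3.30. It was the 1 regulator of 8 at least 2-fold higher with no minimum and 0.1 RPKM added. Mkl1, a myocardin-related cofactor, was at 1.20 and 0.963 RPKM. Srf was at 1.36 and 1.20 RPKM. Myocd itself, the muscle-restricted cofactor, was at 0.0164 and 0.0049 RPKM.

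Markers of other cells beside these values were as follows. Pericyte and mural cell markers summed to 43.9 RPKM in stroma labelled knockout and 44.6 RPKM in control stroma, with a median log2 difference of -0.05 over 9 of 9, and endothelial markers to 49.1 and 52.4 RPKM, with a median of -0.07 over 10 of 10. None of these 19 differed at least 2-fold and none was at 0. Fibroblast markers summed to 548 and 382 RPKM, with a median log2 difference of 0.23 over 10 of 10. Col1a1 and Col1a2, chains of collagen type I, were at least 2-fold higher, and 6 of the 10 were higher and 4 lower, among them Vim at 62.4 and 77.0 RPKM and Pdgfra at 13.3 and 18.0 RPKM. Leukocyte markers summed to 61.8 and 136 RPKM, with Cd74 and Lyz2 at least 2-fold lower of 9 that reached the mean. Their part in the muscle values was not tested.

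The second comparison set luminal epithelium labelled knockout against control epithelium. The muscle genes were low in both, and 8 of the 9 members with a value were lower in the library labelled knockout. They summed to 1.11 RPKM in the labelled knockout and 6.07 RPKM in control, a ratio of 0.184, or 0.262 with Acta2 left out. The largest ratios were those of Acta2, 73.4-fold lower in the labelled knockout, Actg2, 21.1-fold lower, and Myh11, 15.2-fold lower. Because 0 of 10 members reached a mean of 1 RPKM, none entered the comparison in which 7.02% of 7736 genes differed at least 2-fold.

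**Figure D2:**
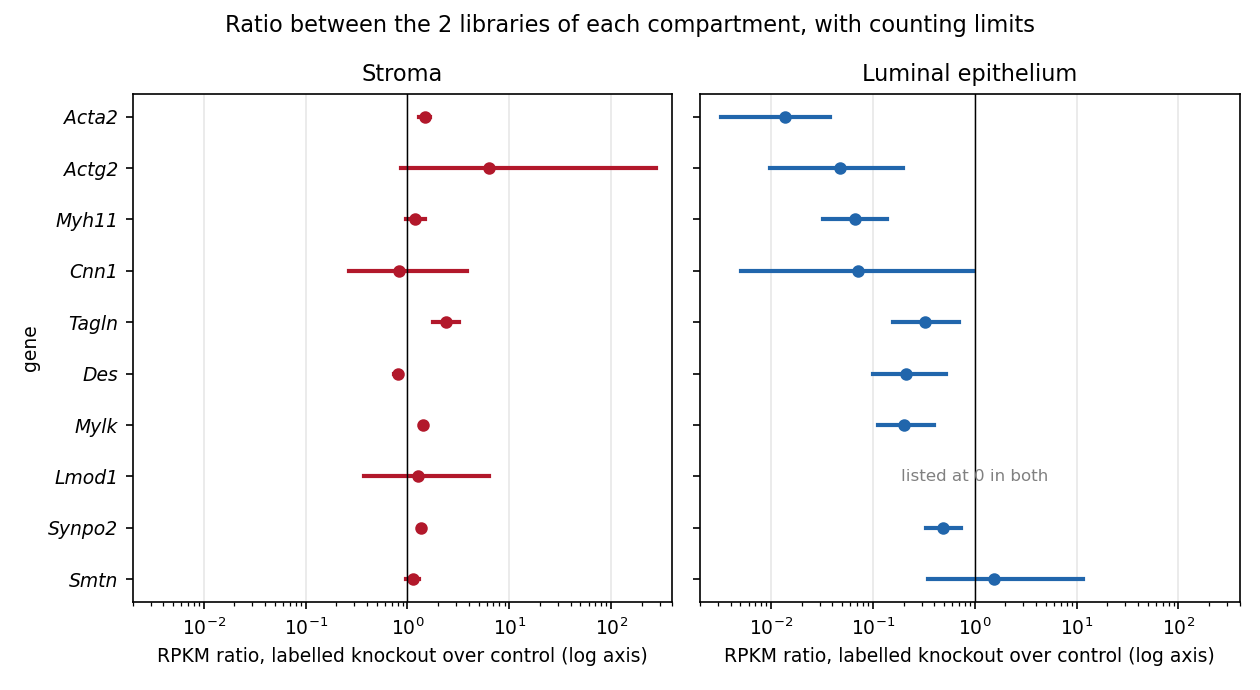
Ratio of RPKM in labelled knockout over control on a log axis for each gene (rows), in stroma (left) and luminal epithelium (right), with bars for 95% counting limits on estimated reads and a line at equal levels. In epithelium the limits of 8 genes lie below 1, while in stroma those of Acta2, Tagln, Mylk and Synpo2 lie above 1 and those of Des below.

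With no minimum of expression, 1 of 9 members, Acta2, was at least 2-fold lower on the scale with 1 RPKM added, where 1.15% of 16364 genes were. With 0.1 RPKM added, 7 of 9 members were at least 2-fold lower, where 6.36% of those genes were, with a median log2 difference of -1.38 for the members and 0.11 for all. The counts that join no minimum with 0.1 RPKM were added after the values had been seen. Scaling the libraries by their upper quartile or by their sum without the 50 most abundant genes moved the median of all kept genes by -0.12 and -0.18 on the log2 scale, and 8 members were lower under each. Those scalings left 338 genes higher and 199 lower, and 315 higher and 225 lower, against 389 and 154 without them.

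Both muscle actins were lower in the labelled knockout. Acta2 was at 0.0261 RPKM in epithelium labelled knockout, about 4.31 reads, and at 1.91 RPKM in control epithelium, about 22.3 reads, and the limits of its 73.4-fold difference were 26.5 and 312. Actg2 was at 0.0381 RPKM in the labelled knockout, about 3.89 reads, and at 0.805 RPKM in control, about 5.78 reads, with limits of 5.05 and 103 on the 21.1-fold difference. Actins are near-identical as proteins and similar in parts of their coding sequence, so some reads can be split between copies. Acta1, the skeletal muscle actin, was at 0.0862 RPKM in the labelled knockout and 0.0553 RPKM in control.

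Myosin and its kinase were lower as well. Myh11 was at 0.0308 RPKM in epithelium labelled knockout, about 17.2 reads, and 0.468 RPKM in control epithelium, about 18.3 reads, with limits of 7.32 and 31.1 on the 15.2-fold difference. Similar read numbers thus came from libraries of very different depth. Mylk was at 0.0645 and 0.317 RPKM in labelled knockout and control, a 4.91-fold difference bounded by 2.50 and 8.87. At the locus of Mylk, E130310I04Rik and 1700119H24Rik were listed at 0 in both.

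Among the other members, Des was at 0.110 RPKM in epithelium labelled knockout and 0.526 RPKM in control epithelium, 4.79-fold lower with limits of 1.90 and 9.96. Tagln was at 0.356 and 1.09 RPKM in labelled knockout and control, a 3.05-fold difference bounded by 1.42 and 6.36, and its neighbours Pcsk7 and Rnf214 were at 1.94 and 1.58 RPKM in the labelled knockout and 1.45 and 1.82 RPKM in control. These neighbours stood above Tagln in both epithelial libraries. Synpo2 was at 0.345 and 0.715 RPKM, a 2.07-fold difference bounded by 1.37 and 3.02.

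The remaining members could hardly be compared. Cnn1 was at 0.0110 RPKM in epithelium labelled knockout, about 2.16 reads, and 0.154 RPKM in control epithelium, about 2.14 reads, and the limits of its ratio of 0.0712 were 0.0051 and 0.971. Smtn was the member higher in the labelled knockout, at 0.133 against 0.0861 RPKM, but its limits of 0.346 and 11.4 reach equal levels. Lmod1 was listed at 0 in both. In control epithelium 6 of 10 members rested on fewer than 10 estimated reads, and the 10 together on 116 reads, against 396 in the labelled knockout.

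The authors' deposited table tested 7 members in epithelium and marked 3 as significant, all lower in the labelled knockout, where it marked 0.537% of 11176 genes as lower. Its q-values were 0.00063 for Acta2, 0.0440 for Actg2 and 0.0495 for Myh11. The q-values were 0.442 for Des, 0.431 for Mylk and at least 0.999999 for Tagln and Synpo2. That test compares 2 libraries and not the genotypes.

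Of the 18 further contractile genes, 6 reached the mean of 1 RPKM in epithelium and 0 of those differed at least 2-fold, with a median log2 difference of 0.02. Counting all 16 with a value, 11 were lower and 5 higher in the labelled knockout. Myl9 was listed at 0 in epithelium labelled knockout and at 1.10 RPKM in control epithelium, about 6.45 reads. Tpm2, a tropomyosin abundant in smooth muscle, was at 0.0277 RPKM in the labelled knockout and 0.384 RPKM in control, 13.9-fold lower with limits of 3.27 and 61.7. Tpm1, a tropomyosin of many cell types, was at 96.1 RPKM in epithelium labelled knockout and 123 RPKM in control epithelium, far above both stromal libraries.

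Signalling genes of muscle showed both directions in epithelium. Of 13 calcium and relaxation genes 6 reached the mean and 0 differed at least 2-fold, with a median of 0.12. Atp2a2 was at 20.7 RPKM in the labelled knockout and 12.8 RPKM in control, and Prkg1, a cyclic GMP-dependent kinase below the mean, at 1.48 and 0.226 RPKM. Prkg1 rested on about 6.74 reads in control, and its deposited locus is shared with Cstf2t, 8430431K14Rik and Gm6642. None of the 7 genes of the uterotonin receptor list reached the mean. Gja1 was at 0.0880 and 0.570 RPKM in labelled knockout and control, and Ptgfr, the prostaglandin F receptor, at 0.0269 and 0.315 RPKM. Among 8 regulators, 2 reached the mean and 0 differed at least 2-fold. Srf was at 7.04 RPKM in the labelled knockout and 5.75 RPKM in control, Mef2c, a muscle transcription factor, at 0.00915 and 0.141 RPKM, and Myocd at 0.0219 RPKM and listed at 0.

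Vessel markers beside these values were near 0 in both epithelial libraries. Pericyte and mural cell markers summed to 0.608 RPKM in epithelium labelled knockout and 0.481 RPKM in control epithelium, with 2 and 3 of 9 listed at 0. Rgs5, which stood above 24 RPKM in stroma, was at 0.0220 RPKM in the labelled knockout and listed at 0 in control. Endothelial markers summed to 0.772 and 0.937 RPKM, with 1 and 3 of 10 listed at 0, among them Emcn in both libraries. Egfl7 was at 0.562 and 0.351 RPKM in labelled knockout and control, and without it the other 9 summed to 0.210 and 0.587 RPKM. Of the 8 pericyte and mural markers with a value, 4 were lower and 4 higher in the labelled knockout. Notch3, a receptor of mural cells, was at 0.381 RPKM in the labelled knockout and 0.0874 RPKM in control, and without it the other 8 summed to 0.226 and 0.394 RPKM. The direction of the sum thus rests on Notch3, which was left out after the values had been seen, and the part of mural cells in the muscle values was not tested.

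Fibroblast markers and most leukocyte markers were lower along with the muscle genes in epithelium. All 10 fibroblast markers were lower in the labelled knockout, summing to 5.59 RPKM there and 13.7 RPKM in control, a ratio of 0.408 against 0.184 for the muscle members. The ratio was 0.433 for the 9 fibroblast markers without Vim and 0.262 for the 9 muscle members without Acta2. Of these 4 reached the mean and 0 differed at least 2-fold, with a median of -0.68, and Vim, an intermediate filament protein, was at 0.266 and 1.39 RPKM. With no minimum and 0.1 RPKM added, 8 of the 10 were at least 2-fold lower. On that scale 7 of 9 muscle members and 6.36% of 16364 genes were. Leukocyte markers summed to 3.42 and 19.6 RPKM, with both that reached the mean, Cd74 and Lyz2, at least 2-fold lower. With no minimum and 0.1 RPKM added, 7 of the 10 leukocyte markers were at least 2-fold lower. Of the 10, 8 were lower and 2 higher in the labelled knockout, with Tyrobp at 0.650 and 0.454 RPKM and Cd68 at 0.742 and 0.565 RPKM. Mesothelial markers of the outer uterine surface summed to 0 and 0.402 RPKM, with 4 and 1 of 4 listed at 0. The part of these cells and of depth in the lower muscle values was not tested.

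The third comparison set stroma against luminal epithelium, in the labelled knockout and in the control. Levels are here set across 2 tables that may have been normalized separately. In the labelled knockout every member was higher in stroma, and of the 6 that reached a mean of 1 RPKM all 6 were at least 2-fold higher, where 10.7% of 8350 genes were. In control 7 of 10 members were higher in stroma, and 5 of the 6 that reached the mean were at least 2-fold higher, where 12.1% of 8030 genes were. The median log2 difference of those 6 was 2.66 in the labelled knockout and 1.64 in control, against -0.32 and -0.29 for all genes. Scaling by the upper quartile moved the medians of all genes by 0.44 and 0.40, and by the sum without the 50 most abundant genes by 0.27 and 0.16. In the labelled knockout 890 genes were higher and 1730 lower in stroma, against 1268 and 1079, and 1100 and 1271, under those scalings. In control 973 were higher and 1574 lower, against 1300 and 967, and 1099 and 1284.

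**Figure D3:**
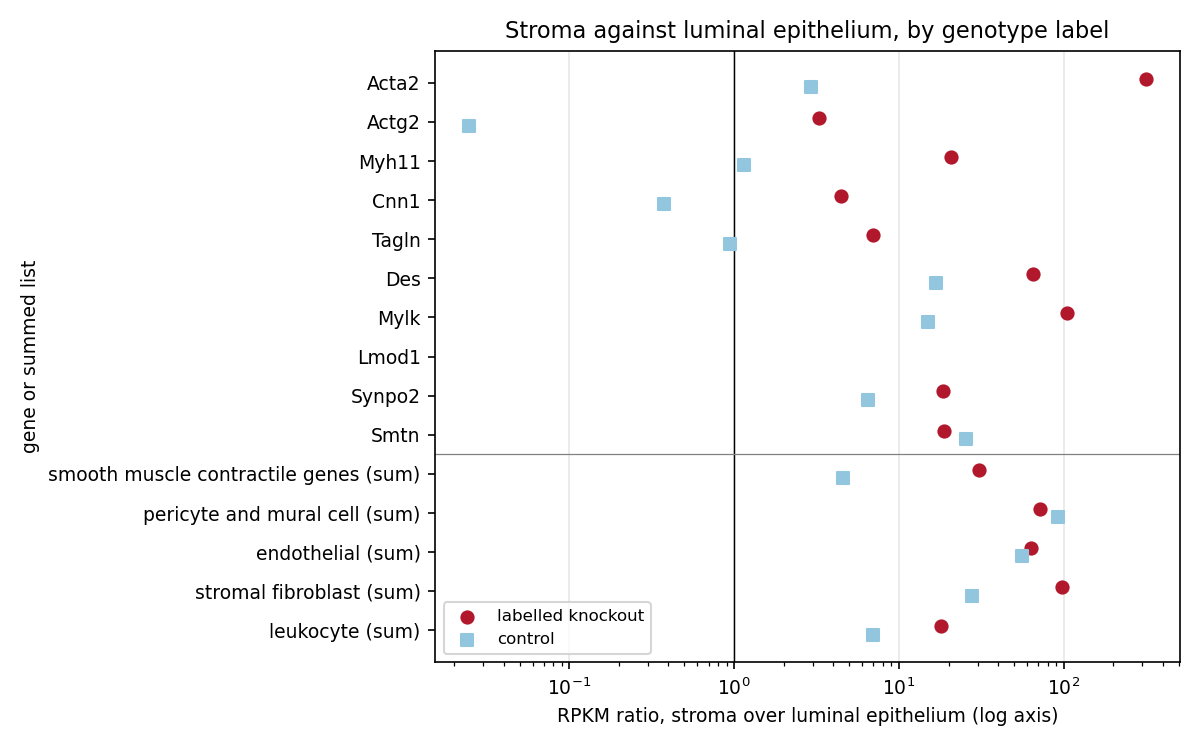
Ratio of RPKM in stroma over luminal epithelium on a log axis for each gene and for the summed RPKM of 5 lists, with circles for the libraries labelled knockout and squares for the controls, and a line at equal levels. The summed muscle genes are at 30.7 in the labelled knockout and 4.55 in control, while pericyte markers are at 72.2 and 92.8. The order of the pericyte ratios rests on Notch3 in epithelium. Lmod1 has no ratio.

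Of the members, 5 had limits above 1 in both genotypes, Des, Mylk, Synpo2, Smtn and Acta2. Des was 64.7-fold higher in stroma than in epithelium in the labelled knockout, with limits of 44.6 and 97.8, and 16.7-fold higher in control, with limits of 9.19 and 38.4. Mylk was 105-fold and 15.1-fold, Synpo2 18.4-fold and 6.46-fold, and Smtn 18.8-fold and 25.6-fold higher in labelled knockout and control.

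Acta2 was 315-fold higher in stroma than in epithelium in the labelled knockout, with limits of 132 and 1248, but 2.91-fold higher in control, with limits of 1.92 and 4.76. Myh11 was 20.7-fold higher in the labelled knockout, with limits of 12.8 and 36.5, but had a ratio of 1.15 in control, with limits of 0.714 and 2.03. Tagln was 6.92-fold higher in the labelled knockout and had a ratio of 0.947 in control, with limits of 0.463 and 1.99, a log2 difference of -0.04 that became 0.26 and 0.08 under the other scalings. For Myh11 and Tagln, limits in control thus reached equal levels in both compartments.

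Actg2 ran opposite in control. It was at 0.0199 RPKM in control stroma and 0.805 RPKM in control epithelium, 40.5-fold lower in stroma with limits of 4.88 and 1849, from about 0.957 and 5.78 reads. In the labelled knockout it was at 0.125 RPKM in stroma and 0.0381 RPKM in epithelium, a ratio of 3.29 with limits of 0.924 and 14.7. As a share of Acta2 plus Actg2, Actg2 made up 1.50% in stroma labelled knockout, 0.355% in control stroma, 59.3% in epithelium labelled knockout and 29.6% in control epithelium. The shares in epithelium rest on few reads. Cnn1 in control was at 0.0584 RPKM in stroma and 0.154 RPKM in epithelium, with limits of the ratio at 0.0611 and 3.92.

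Ratios for fibroblast and leukocyte markers were higher in the labelled knockout than in control, as for the muscle genes. Those of endothelial markers were similar when all 10 were summed, and those of pericyte markers lower. The likeness of the endothelial ratios rests on Egfl7, at 0.562 RPKM in epithelium labelled knockout and 0.351 RPKM in control epithelium. In control that was about 2.49 reads. Without Egfl7 the other 9 endothelial markers summed to 0.210 and 0.587 RPKM there. The order of the pericyte ratios rests on Notch3, at 0.381 RPKM in epithelium labelled knockout and 0.0874 RPKM in control epithelium. Without Notch3 the pericyte markers summed to 0.226 and 0.394 RPKM there. Summed muscle members were 30.7-fold higher in stroma in the labelled knockout and 4.55-fold higher in control. Pericyte and mural markers were 72.2-fold and 92.8-fold, endothelial markers 63.6-fold and 55.9-fold, fibroblast markers 97.9-fold and 27.9-fold, and leukocyte markers 18.1-fold and 6.94-fold higher in labelled knockout and control. All 10 endothelial and all 9 pericyte markers were higher in stroma in each genotype. Among the smooth muscle regulators, Srf was at 1.36 RPKM in stroma and 7.04 RPKM in epithelium in the labelled knockout, and at 1.20 and 5.75 RPKM in control, higher in epithelium in both.

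Further contractile genes were divided in the same contrast. Of 18, 11 reached the mean in each genotype. In the labelled knockout 6 were at least 2-fold higher and 2 lower in stroma, and in control 5 higher and 2 lower. Cald1, the actin-binding caldesmon, was at 8.28 RPKM in stroma and 0.0610 RPKM in epithelium in the labelled knockout, and at 6.55 and 0.271 RPKM in control. Cacna1c, a subunit of the L-type calcium channel, was at 1.63 and 0.0222 RPKM in stroma and epithelium labelled knockout, and Gucy1a3, a subunit of the nitric oxide receptor, at 1.30 RPKM in control stroma and listed at 0 in control epithelium.

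The muscle forms made up at most 3.76% of the actins, myosin heavy chains and calponins in each library, and a larger part of the transgelins. Of the RPKM of the 6 actins, Acta2 and Actg2 made up 2.46% in stroma labelled knockout, 1.79% in control stroma, 0.0166% in epithelium labelled knockout and 0.734% in control epithelium. Actb, a cytoplasmic actin of all cells, ranged from 196 to 235 RPKM across the libraries. Myh11 made up 3.76% and 3.22% of the RPKM of 4 class II myosin heavy chains in labelled knockout and control stroma, and 0.270% and 3.20% in labelled knockout and control epithelium. The share in control epithelium was thus close to that in both stromal libraries.

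Calponin and transgelin forms were set against their non-muscle partners in the same way. Cnn1 held 0.216% and 0.273% of the RPKM of 3 calponins in labelled knockout and control stroma, and 0.0148% and 0.138% in labelled knockout and control epithelium, where Cnn3, the non-muscle form, was at 73.8 and 110 RPKM. Tagln held 19.4% and 8.34% of Tagln plus Tagln2 in labelled knockout and control stroma, and 8.16% and 23.4% in labelled knockout and control epithelium. Of 13 non-muscle counterparts, 12 reached the mean in stroma and 11 in epithelium, and 0 of these differed at least 2-fold between genotypes. Cnn2, another calponin, stayed below the mean in epithelium at 0.399 RPKM in the labelled knockout and 1.16 RPKM in control, 2.90-fold lower with limits of 1.66 and 5.08. Myh10, a non-muscle myosin heavy chain, was at 0.439 and 0.887 RPKM there, 2.02-fold lower with limits of 1.44 and 2.80. Striated muscle genes stayed low, with sums over 10 genes of 0.393 and 0.196 RPKM in labelled knockout and control stroma and 0.183 and 0.307 RPKM in labelled knockout and control epithelium.

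**Figure D4:**
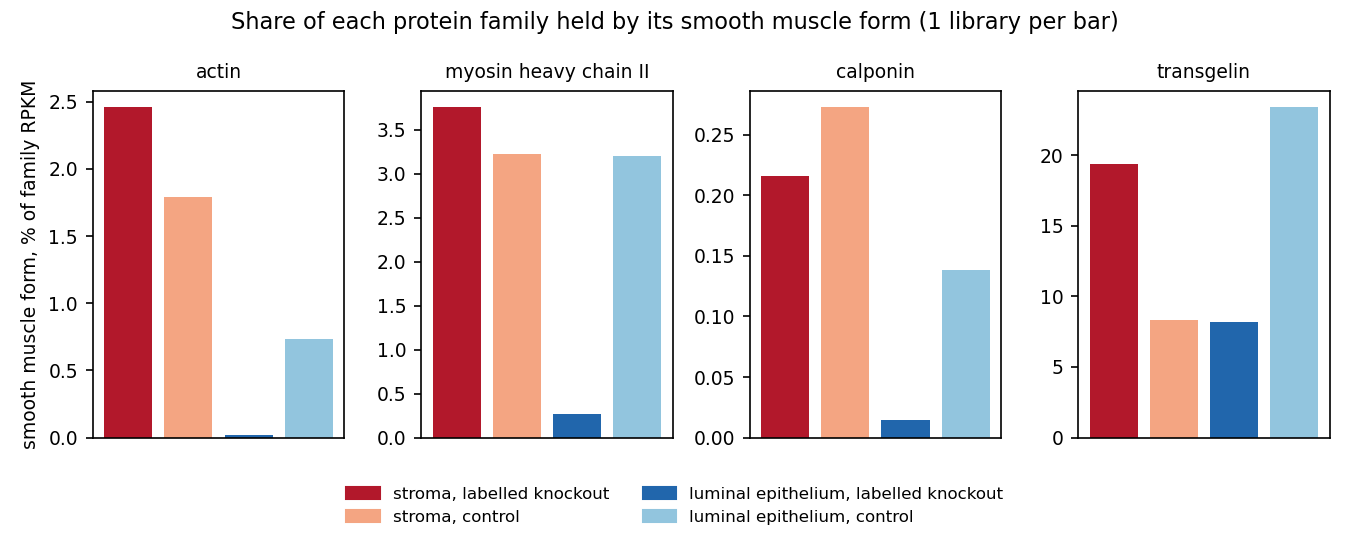
Share of RPKM held by the smooth muscle form in 4 protein families (actins, class II myosin heavy chains, calponins, transgelins), in percent, 1 bar per library in the order of the key, each panel with its own axis from 0. Epithelium labelled knockout has the lowest bar in each family, at 0.0166% of actin and 0.270% of myosin.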

How the data were processed

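RNA from 4 laser-captured samples, 1 per group, was analysed from 2 deposited tables, 1 per compartment, which may have been normalized separately. The authors deposited RPKM, per the file headers. They also deposited a p-value and a q-value for each gene, from their own comparison of the pair of libraries in a table. The deposited log2 fold change column was not used. Build mm9 and the tools Cufflinks 2.0.2, TopHat2 2.0.5, TopHat and CASAVA 1.8.2 are named, per the submitters' processing notes; settings are not stated there. Samples were grouped by their titles.

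Ratios used RPKM as deposited. Log2 differences added 1 RPKM, over genes with a pair mean of at least 1 RPKM, and a gene was counted at 1 log2 unit. Depth was estimated from low RPKM values, which piled up at whole multiples of 1 read once multiplied by transcript length (GENCODE vM21, matched by RefSeq identifier for 97.3% of genes) less 200 bases. Between 57.4% and 61.6% of low values lay within 0.2 of a whole read, so reads are approximate. Loci are mm9 as deposited, with starts raised by 1. Members and lists were chosen with earlier results of these data known. The text names all members and up to 2 genes of each list with the largest difference, and other genes were chosen after their values were seen. Alternatives changed the pseudocount, minimum, scaling and gene models. The steps were tested on simulated data with depths other than those of the libraries. Changes were set there only in genes more abundant than any member in epithelium, so that test does not cover the members in epithelium. Computation used scipy 1.17.1, pandas 2.3.3 and numpy 2.4.6 in Python 3.11.15, with plots from matplotlib 3.10.9.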

Additional observations from a re-analysis of the deposited data

Results flagged for a closer look

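In 4 members the labelled knockout differed from control in opposite directions in the 2 compartments, with counting limits that leave out equal levels in each. The log2 ratio in stroma minus that in luminal epithelium was 6.75 for Acta2, 2.87 for Tagln, 2.80 for Mylk and 1.51 for Synpo2. The pattern was not particular to the members. Col1a1 had ratios of 2.54 in stroma and 0.651 in epithelium, and Gja1 of 1.72 and 0.154, also with limits that leave out equal levels. The share of all genes with this pattern was not counted. The difference between compartments was not tested, since each ratio comes from 1 library a group, and the sampling of animals and the depth of the control epithelial library (about 6340000 reads) cannot be told apart from it.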

How the results depend on the processing

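No paired analysis was possible because each group held 1 library. In stroma, labelled knockout against control, the count of members at least 2-fold different was 0, and it was 1 with a pseudocount of 0.1 RPKM, alone or with no minimum, and 1 with either other scaling added. With no minimum and 0.1 RPKM, 4.64% of 17632 genes differed in either direction. In luminal epithelium the count was 0, and it was 1 with no minimum, 7 with no minimum and a pseudocount of 0.1 RPKM, and 8 with either other scaling added to these. Of 16364 genes, 3.75% differed in either direction with no minimum, and 16.2% with 0.1 RPKM as well. The share of all genes with a scaling added to these was not counted. All members lay below the minimum there. The counts of 7 and 8 come from several choices changed together, and the cause was not tested. The joint settings and the leaving out of Tagln and Mylk, whose loci are shared, were chosen after seeing the data. For stroma against epithelium the count in either direction was 6 in the labelled knockout and 5 in control, where 31.4% of 8350 and 31.7% of 8030 genes differed. The ranges were 4 to 7 and 4 to 6 over these alternatives. Both counts of 4 came with Tagln and Mylk left out. The counts of 7 and 6 came with no minimum and 0.1 RPKM, where 38.3% of 17936 and 42.9% of 17158 genes differed. Of those 6 in control, 5 were higher in stroma and 1, Actg2, was lower. Of 39 log2 differences of single members, 13 moved by more than the mean distance to their counting limits with a pseudocount of 0.1 RPKM, 2 with the upper quartile and 1 with the sum without the 50 most abundant genes, and 0 called differences turned. Depth limits Actg2, Cnn1, Lmod1 and, in control epithelium, Smtn, Tagln and Des. Tagln rested there on about 9.62 reads and Des on about 9.43.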
